A study of Mus musculus with 11 samples.

Results

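Cytochrome P450 genes of families 1, 3 and 4 were followed in RNA from mouse hepatocytes of 4 genotypes, measured on 11 expression arrays. A gene was a member when it had an array row with a single symbol made of Cyp1, Cyp3 or Cyp4 followed by a letter and a number. Pseudogenes were left out. Of 30142 genes with a named row, 26 were members, with 3 in the Cyp1 family, 7 in Cyp3 and 16 in Cyp4. Each had 1 row, and 24 passed the filter on low signal. Cyp1b1 and Cyp4x1 lay below it and were not tested. Rows that name several genes were not used, so Cyp3a41a, Cyp3a41b, Cyp4a10 and Cyp4v3 were not analysed here.

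The hepatocytes came from male mice aged 12 weeks. The labels give Double KO (liver-specific Nemo deletion together with Cxcr6 deletion, n = 3), Nemo KO (liver-specific Nemo deletion, n = 3), Cxcr6 KO (Cxcr6 deletion, n = 3) and Wildtype (n = 2). Nemo (Ikbkg) is the non-catalytic part of the IKK kinase complex, through which NF-kB is switched on, and Cxcr6 is a chemokine receptor of T and NKT cells. The source names put Nemo KO and Wildtype in a Nemo line with and without Cre, and Double KO and Cxcr6 KO in a Nemo and Cxcr6 line with and without Cre. The effect of Nemo could therefore be read inside a line, while Cxcr6 status and mouse line cannot be told apart. The labels name Cre but not the promoter that drives it, and they call the replicates biological without saying that each is a separate mouse, so p-values measure the spread between these samples.

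P450 enzymes are haem proteins of the endoplasmic reticulum that oxidise drugs, steroids and fatty acids with electrons from NADPH. Cyp1 genes are the textbook targets of the aryl hydrocarbon receptor Ahr, which binds DNA with Arnt. Cyp3a genes encode the main drug- and steroid-oxidising P450s of liver and are induced through the receptors PXR (Nr1i2) and CAR (Nr1i3). Cyp4 enzymes hydroxylate fatty acids and eicosanoids at the far end of the chain, and the hepatic Cyp4a genes are classical targets of the fatty acid receptor PPARa (Ppara).

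All levels below are log2 signals, a scale on which differences are log2 fold changes, and a level of 1 gene was never set against that of another. The means of 9 hepatocyte markers (Alb, Ttr and Apob among them) lay between 19.25 and 19.42 in all 11 arrays; the highest value on any array was 19.93. Ikbkg lay between 8.76 and 9.49 and Cxcr6 between 4.94 and 5.56 over all arrays, so neither row separated the genotypes. The Y-linked gene Eif2s3y had group means between 10.25 and 10.54, and Xist lay between 5.58 and 5.99 in every array. The Wildtype arrays were the least alike pair within a group. Their correlation across all array rows was 0.984, against 0.990 to 0.995 in the other groups. Wildtype replicates 1 and 2 were over 1 log2 unit apart for 6.54% of all genes tested, and for 9 of the 24 members. The mean of 16 male-biased liver genes was 15.30 in Wildtype 1 and 13.46 in Wildtype 2, that of 15 female-biased genes was 7.06 and 9.27, and that of 4 proliferation markers was 5.43 and 8.32. In these bulk samples, fewer cells of a type and less RNA per cell cannot be told apart.

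The windows around the gene starts (250 bases before to 50 after) are shown because the members that moved together across arrays have starts of different likeness. A window was found for 20 of the 26 members in RefSeq, build GRCm38.p6, and none was matched for Cyp4a12a, Cyp4a12b, Cyp4a14, Cyp4a31, Cyp4f17 or Cyp4x1. Each is printed from 5′ to 3′ in the direction of the gene. The first 6 are Cyp3a genes of a cluster on chromosome 5, where capitals mark the nuclear receptor element AGGTCA on either strand (TGACCT is its reverse complement). They lie at chr5:146009569-146009868 (minus strand) for Cyp3a25, chr5:145345019-145345318 (plus) for Cyp3a57, chr5:146079008-146079307 (plus) for Cyp3a59, chr5:145879805-145880104 (minus) for Cyp3a11, chr5:145805825-145806124 (minus) for Cyp3a44 and chr5:145469674-145469973 (minus) for Cyp3a16.
Cyp3a25: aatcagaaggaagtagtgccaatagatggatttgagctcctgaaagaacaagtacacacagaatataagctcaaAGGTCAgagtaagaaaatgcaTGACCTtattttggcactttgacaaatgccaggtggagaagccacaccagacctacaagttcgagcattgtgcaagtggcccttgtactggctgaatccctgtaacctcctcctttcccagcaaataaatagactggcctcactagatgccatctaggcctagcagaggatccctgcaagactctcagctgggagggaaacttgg
Cyp3a57: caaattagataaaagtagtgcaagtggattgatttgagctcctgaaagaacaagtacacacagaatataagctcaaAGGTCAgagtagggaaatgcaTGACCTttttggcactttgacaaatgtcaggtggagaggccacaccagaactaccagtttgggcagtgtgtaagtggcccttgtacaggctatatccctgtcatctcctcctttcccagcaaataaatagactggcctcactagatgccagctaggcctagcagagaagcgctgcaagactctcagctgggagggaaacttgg
Cyp3a59: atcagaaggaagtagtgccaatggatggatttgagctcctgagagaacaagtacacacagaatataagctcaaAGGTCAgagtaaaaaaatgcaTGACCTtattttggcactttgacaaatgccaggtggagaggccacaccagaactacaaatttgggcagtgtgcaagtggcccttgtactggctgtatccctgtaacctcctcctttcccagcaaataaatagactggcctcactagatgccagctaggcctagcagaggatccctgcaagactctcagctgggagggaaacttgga
Cyp3a11: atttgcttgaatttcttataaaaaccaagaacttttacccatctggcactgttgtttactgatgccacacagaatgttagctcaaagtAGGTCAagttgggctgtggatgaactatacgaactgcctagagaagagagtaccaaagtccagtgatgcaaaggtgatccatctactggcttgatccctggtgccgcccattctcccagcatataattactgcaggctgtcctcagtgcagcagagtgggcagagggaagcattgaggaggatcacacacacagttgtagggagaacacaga
Cyp3a44: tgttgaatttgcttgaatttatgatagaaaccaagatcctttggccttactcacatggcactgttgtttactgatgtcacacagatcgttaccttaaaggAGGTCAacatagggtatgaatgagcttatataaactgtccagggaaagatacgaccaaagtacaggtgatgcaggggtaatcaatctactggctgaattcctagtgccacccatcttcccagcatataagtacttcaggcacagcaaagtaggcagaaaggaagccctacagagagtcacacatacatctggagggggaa
Cyp3a16: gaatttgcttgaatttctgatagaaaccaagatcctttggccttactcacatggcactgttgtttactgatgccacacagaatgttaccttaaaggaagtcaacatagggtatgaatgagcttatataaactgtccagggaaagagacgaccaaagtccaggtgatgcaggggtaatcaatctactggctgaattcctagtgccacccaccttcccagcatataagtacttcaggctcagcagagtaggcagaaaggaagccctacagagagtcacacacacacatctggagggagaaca
The element occurred at -176 and -155 from the start in Cyp3a25, at -174 and -153 in Cyp3a57 and at -177 and -156 in Cyp3a59. It occurred once in Cyp3a11, at -162, and once in Cyp3a44, at -150, and the letters were not in the windows of Cyp3a16 or Cyp3a13. Of 32851 windows of this length in the table, 16.3% held it, against 5 of the 20 member windows. In global alignments, the windows of Cyp3a25 and Cyp3a59 were 95.7% identical, those of Cyp3a57 and Cyp3a59 90.8%, and those of Cyp3a25 and Cyp3a57 89.7%. Cyp3a16 and Cyp3a44 were 93.4% identical, and Cyp3a11 was 75.2% identical to Cyp3a16 and 71.8% to Cyp3a44. All other Cyp3a pairs lay between 52.7% and 58.1%. Whether the array rows of such close copies share probe signal was not tested, so the signals of Cyp3a25, Cyp3a57 and Cyp3a59, or of Cyp3a16 and Cyp3a44, are uncertain as to gene.

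Of the other families, 3 windows are shown for the genes whose signals the results below turn on. Capitals mark GCGTG, the core bound by Ahr with Arnt, in Cyp1a1 (chr9:57697363-57697662, plus strand), and TTCNNNGAA, the site of the growth hormone factor STAT5, in Cyp4b1 (chr4:115647672-115647971, minus strand). Cyp4a32 (chr4:115600688-115600987, plus strand) held none of the motifs searched.
Cyp1a1: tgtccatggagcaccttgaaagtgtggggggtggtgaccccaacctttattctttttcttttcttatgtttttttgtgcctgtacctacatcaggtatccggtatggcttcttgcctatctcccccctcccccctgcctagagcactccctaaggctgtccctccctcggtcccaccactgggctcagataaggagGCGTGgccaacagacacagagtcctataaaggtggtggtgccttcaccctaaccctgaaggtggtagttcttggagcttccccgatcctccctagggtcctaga
Cyp4b1: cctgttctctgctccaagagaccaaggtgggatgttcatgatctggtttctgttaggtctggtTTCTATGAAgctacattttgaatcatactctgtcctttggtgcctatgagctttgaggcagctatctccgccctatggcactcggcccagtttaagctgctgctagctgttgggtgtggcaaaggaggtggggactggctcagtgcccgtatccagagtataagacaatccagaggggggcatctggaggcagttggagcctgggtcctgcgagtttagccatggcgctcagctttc
Cyp4a32: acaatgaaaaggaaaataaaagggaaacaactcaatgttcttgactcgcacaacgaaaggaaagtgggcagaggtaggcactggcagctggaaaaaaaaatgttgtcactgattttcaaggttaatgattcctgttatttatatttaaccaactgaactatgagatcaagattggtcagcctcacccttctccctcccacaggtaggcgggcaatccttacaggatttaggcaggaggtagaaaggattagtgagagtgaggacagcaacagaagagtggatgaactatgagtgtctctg
GCGTG lay at -54 in Cyp1a1 and was present in 5 of the 20 member windows, against 32.4% of all windows. TTCNNNGAA lay at -187 in Cyp4b1 and was present in 2 member windows, against 8.3% of all windows. A direct repeat of AGGTCA with 1 base between, called DR1, the arrangement PPARa binds, was in none of the member windows and in 0.0396% of all windows. Of the Cyp4a members only Cyp4a32 had a window, and so rare an element is unlikely in 20 windows. Its absence therefore says nothing on the Cyp4a genes. Both strands were searched for each motif, and a DR1 also counts as AGGTCA. For Cyp3a25, Cyp4f14 and Cyp4f40, with 2, 4 and 2 windows listed, only the first was used. The shares of all windows count every listed window. A match is a description of the letters and not a bound site.

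With limma, 6 comparisons were fitted on the 18337 genes that passed the filter, and those with an adjusted p under 5% are named as called. Cyp4a14, a PPARa-inducible fatty acid hydroxylase, fell and Cyp4b1 rose with Nemo deletion averaged over both lines, which is the mean of the Nemo KO minus Wildtype and Double KO minus Cxcr6 KO differences. These were the 2 calls among 24 members, against 20.3% of all genes tested. Between Double KO and Cxcr6 KO the 1 member called was Cyp4b1, against 7.41% of all genes. No member was called in Nemo KO against Wildtype, where 0.158% of all genes passed. There 2 members and 4506 of all 18337 genes had an unadjusted p under 0.05. No member was called in Cxcr6 KO against Wildtype, where 0.256% of all genes passed. There 5 members and 2029 genes had an unadjusted p under 0.05. Nor was any member called in Double KO against Nemo KO, where 0.594% of all genes passed. There 4 members and 3078 genes had an unadjusted p under 0.05. The interaction, the Nemo difference in the Cxcr6-deleted line minus that in the other line, called 0 genes of any kind (0%), with 1 member and 2155 genes at an unadjusted p under 0.05. It called 230 genes without Wildtype 1 and 88 without Wildtype 2.

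The medians of the members lay near those of all genes. The median log2 difference was 0.08 for the 24 members and -0.04 for all genes in Nemo KO against Wildtype, -0.01 and -0.06 in Double KO against Cxcr6 KO, and 0.13 and -0.04 for the average over both lines. It was 0.20 for the members and 0.01 for all genes in Cxcr6 KO against Wildtype, 0.10 and 0.04 in Double KO against Nemo KO. For the interaction it was -0.04 for the members and 0.04 for all genes. The 40 tested Cyp2 genes, another large P450 family of liver, had medians of -0.07, -0.23, -0.18, 0.23, 0.03 and -0.07 in these 6 comparisons in the same order. Of the Cyp2 genes, 4 rose and 8 fell in the average over both lines, 2 rose and 1 fell in Double KO against Cxcr6 KO, and none was called in the other comparisons by limma. The values of the members are given by subfamily below.

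**Figure D1:**
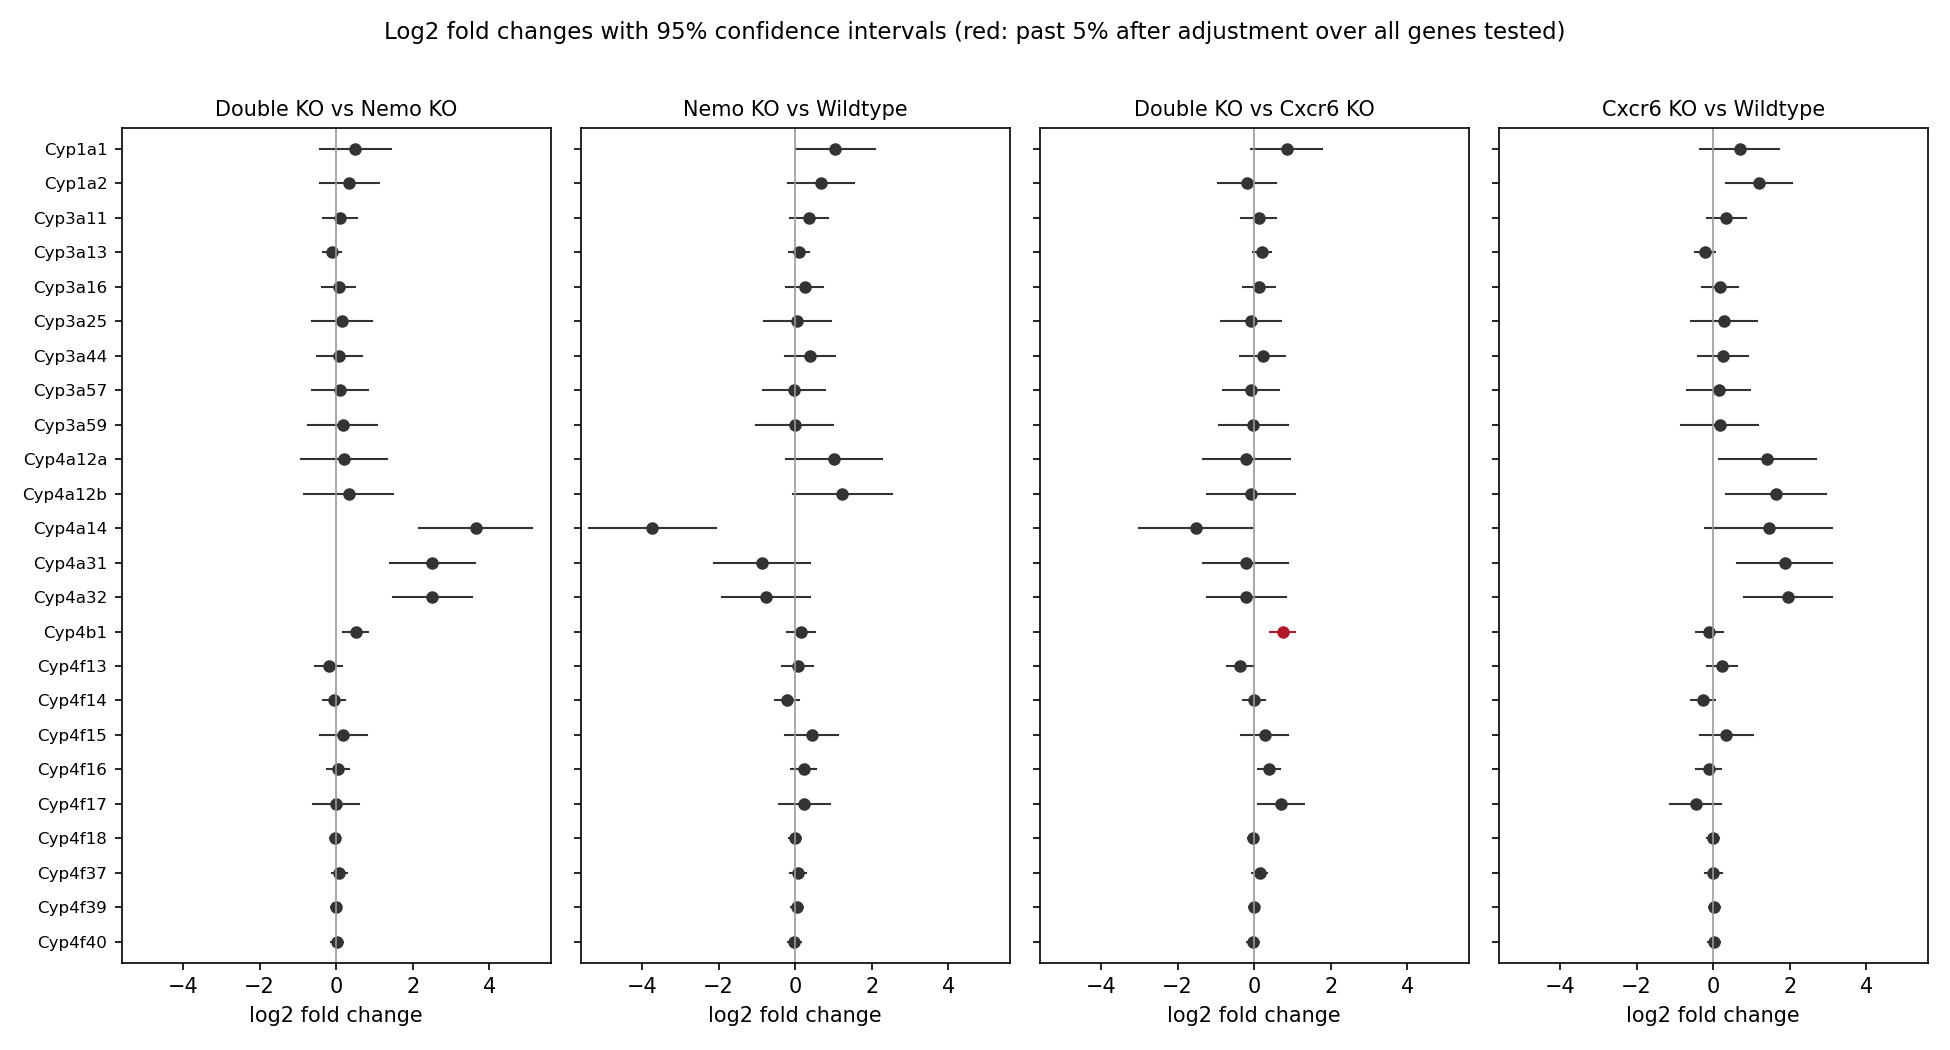
Log2 fold changes (points) with 95% confidence intervals (lines) of the 24 tested members in 4 comparisons. Cyp4a14, Cyp4a31 and Cyp4a32 lie furthest right in Double KO against Nemo KO, at 3.65, 2.51 and 2.51, Cyp4a14 lies furthest left in Nemo KO against Wildtype, at -3.73, and Cyp4b1 (red) is the 1 member past 5% in Double KO against Cxcr6 KO.

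The Cyp4a genes had the widest ranges over the 11 arrays, 2.87 to 5.54 log2 units. Cyp4a14 had log2 signals of 16.60, 15.78 and 16.40 in Double KO, 12.42, 12.96 and 12.47 in Nemo KO, 17.82, 17.64 and 17.91 in Cxcr6 KO, and 17.96 and 14.72 in Wildtype. The Nemo KO arrays were the 3 lowest of all 11 and did not overlap any other group. Averaged over both lines, Nemo deletion lowered Cyp4a14 by 2.63 ± 0.49 log2 units (SE, here and for all differences below; adjusted p = 0.0122), a 6.19-fold lower signal and the 3rd lowest difference of 18337 genes. This call held in all 19 alternative settings that could be run for it, with values between -3.44 and -1.82. In Nemo KO against Wildtype the difference was -3.73 ± 0.73, a 13.2-fold lower signal and the 2nd lowest of all genes, with every Nemo KO array below both Wildtype arrays and an adjusted p of 0.0651. It was -1.53 ± 0.65 in Double KO against Cxcr6 KO (adjusted p = 0.159), again with no overlap.

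Wildtype replicates 1 and 2 were 3.24 log2 units apart for Cyp4a14, the 50th largest gap of all genes tested. With 1 Wildtype array left out, the other is assumed to vary like the arrays of the other groups, which alone supply the spread. Without Wildtype 1 the difference of Nemo KO against Wildtype was -2.11 (adjusted p = 0.0307), and without Wildtype 2 it was -5.35 (adjusted p = 0.000846). Leaving out Nemo KO 3 gave -3.65 and an adjusted p of 0.0494. The sign was the same with either Wildtype array.

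Set against Nemo KO, Double KO had a higher Cyp4a14 signal, by 3.65 ± 0.65 log2 units (12.5-fold, 95% interval 2.17 to 5.12), the 4th highest difference of 18337 genes, at an adjusted p of 0.0528. Double KO against Nemo KO shares its Nemo KO arrays with Nemo KO against Wildtype, and it compares mice of different lines. The call missed 5% in the fit of 4 groups and passed it in 7 of 20 alternatives, among them without Wildtype 1 and without Wildtype 2 (adjusted p = 0.00112 in each). Wildtype enters this comparison only through the spread estimated over all groups. The interaction was 2.20 ± 0.98 (adjusted p = 0.427) and 3.81 without Wildtype 2 (adjusted p = 0.0174), with 0.58 as the lowest value over the alternatives.

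Cyp4a31 and Cyp4a32, neighbours of Cyp4a14 on chromosome 4 and close relatives of Cyp4a10, had a different pattern in Wildtype. Cyp4a31 had log2 signals of 15.16, 14.86 and 14.93 in Double KO, 12.20, 13.56 and 11.66 in Nemo KO, 15.29, 15.07 and 15.26 in Cxcr6 KO, and 14.15 and 12.53 in Wildtype. Cyp4a32 had 15.67, 15.37 and 15.52 in Double KO, 12.76, 13.98 and 12.30 in Nemo KO, 15.83, 15.62 and 15.74 in Cxcr6 KO, and 14.55 and 12.98 in Wildtype. For both genes the 6 arrays of the Cxcr6-deleted line were the 6 highest, and Nemo KO overlapped Wildtype. Whether probes of the 2 rows read both genes was not tested, and the row that names Cyp4a10 together with Cyp4a31 was not used.

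Double KO exceeded Nemo KO by 2.51 ± 0.49 log2 units for Cyp4a31 (5.69-fold, adjusted p = 0.0655) and by 2.51 ± 0.46 for Cyp4a32 (5.70-fold, adjusted p = 0.0548). Without Nemo KO 2, whose signals were the highest of its group, the differences were 3.05 and 3.00 and both passed (adjusted p = 0.0318 and 0.0307). Both also passed without Wildtype 1 and without Wildtype 2 (adjusted p = 0.0423 for Cyp4a31 and 0.0311 for Cyp4a32 in each). Cxcr6 KO exceeded Wildtype by 1.86 ± 0.55 for Cyp4a31 (adjusted p = 0.232) and 1.96 ± 0.51 for Cyp4a32 (adjusted p = 0.181), with every Cxcr6 KO array above both Wildtype arrays. These values were 2.68 and 2.75 without Wildtype 1 (adjusted p = 0.054 and 0.0373) and 1.05 and 1.18 without Wildtype 2 (adjusted p = 0.528 and 0.37). The Nemo differences inside a line were -0.87 ± 0.55 and -0.76 ± 0.51 in Nemo KO against Wildtype (adjusted p = 0.373 and 0.401) and -0.22 ± 0.49 and -0.21 ± 0.46 in Double KO against Cxcr6 KO (adjusted p = 0.799 and 0.796). In Nemo KO against Wildtype they were -0.06 and 0.03 without Wildtype 1 and -1.68 and -1.54 without Wildtype 2, so their size beside the Cxcr6 KO differences depended on the Wildtype array kept.

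**Figure D2:**
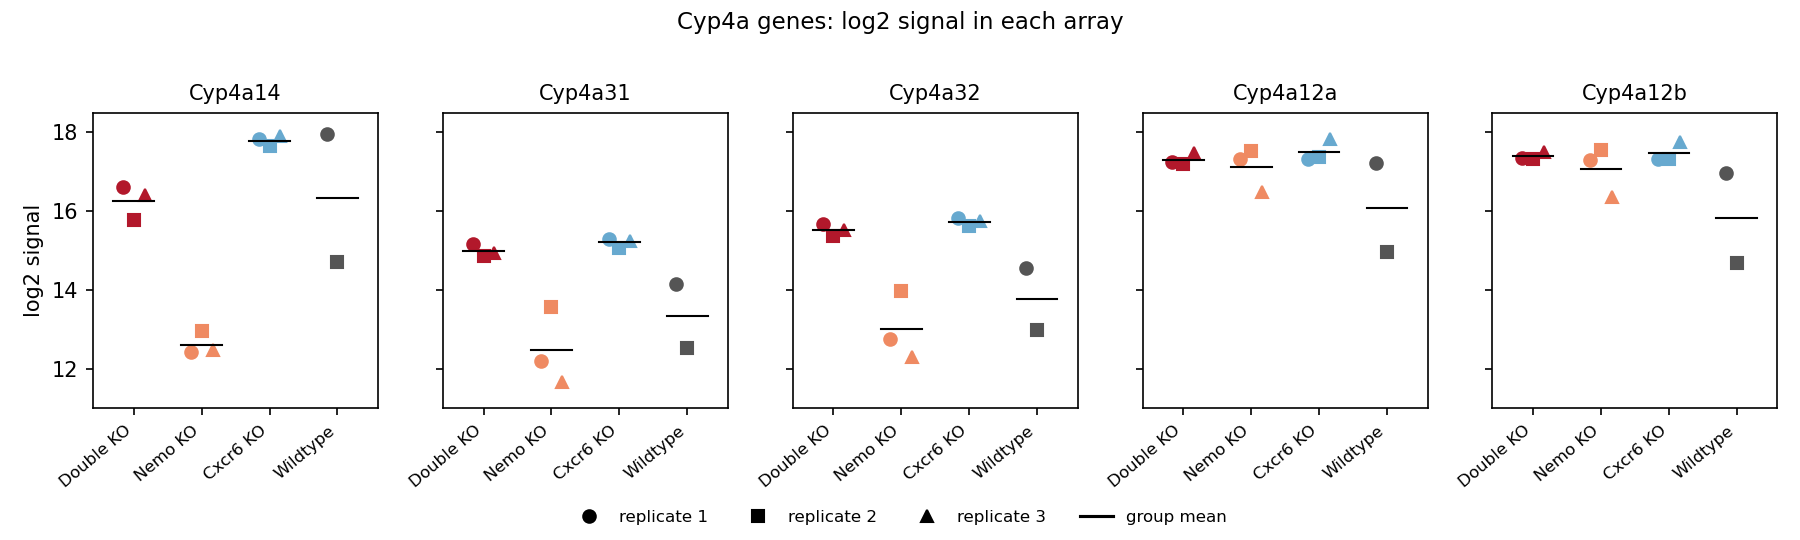
Log2 signal (vertical axis) of the 5 Cyp4a genes in each array, by genotype, with the group mean as a bar and the replicate as a symbol. The 3 Nemo KO arrays are lowest for Cyp4a14, the 6 arrays with Cxcr6 deleted are highest for Cyp4a31 and Cyp4a32, and Wildtype 2 is lowest for Cyp4a12a and Cyp4a12b.

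Cyp4a12a and Cyp4a12b encode the male-predominant arachidonic acid hydroxylases of mouse liver and kidney. Cyp4a12a had log2 signals of 17.24, 17.21 and 17.48 in Double KO, 17.32, 17.52 and 16.50 in Nemo KO, 17.32, 17.38 and 17.83 in Cxcr6 KO, and 17.22 and 14.95 in Wildtype. Cyp4a12b had 17.35, 17.32 and 17.50 in Double KO, 17.29, 17.54 and 16.35 in Nemo KO, 17.33, 17.31 and 17.77 in Cxcr6 KO, and 16.97 and 14.68 in Wildtype. Wildtype 2 was the lowest array for both genes, by 2.27 and 2.29 log2 units below Wildtype 1, and it was also the array with the lowest mean of the male-biased list. Cxcr6 KO exceeded Wildtype by 1.42 ± 0.56 and 1.65 ± 0.57 (adjusted p = 0.384 and 0.314), and Nemo KO exceeded it by 1.02 ± 0.56 and 1.23 ± 0.57 (adjusted p = 0.296 and 0.222). Against Wildtype 2 alone, the lowest array for both genes and with the spread taken from the other groups, the 4 differences were past 5%, at 2.55 and 2.79 for Cxcr6 KO and 2.16 and 2.38 for Nemo KO (adjusted p between 0.0148 and 0.0421). Without Wildtype 2 they were 0.28 and 0.50 for Cxcr6 KO and -0.11 and 0.09 for Nemo KO. Double KO differed from Nemo KO by 0.20 ± 0.50 and 0.33 ± 0.51 (adjusted p = 0.859 and 0.757).

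Across the subfamily, all 5 Cyp4a genes had a positive difference in Double KO against Nemo KO (median 2.51) and in Cxcr6 KO against Wildtype (median 1.65), also after each array was centred on its median or quantile normalized. Of all 18337 genes tested, 10437 and 9497 were positive in these 2 comparisons. Cyp4a31 ran close to Cyp4a32 over the arrays, and Cyp4a12a close to Cyp4a12b, so the 5 genes are not independent readings. Leaving out Nemo KO 3 turned the Double KO against Nemo KO values of Cyp4a12a and Cyp4a12b to -0.11 and -0.03, and leaving out Wildtype 2 turned the Cxcr6 KO against Wildtype value of Cyp4a14 to -0.17. In Double KO against Cxcr6 KO all 5 were negative, against 11116 of all genes, with a median of -0.21 and none called. There Cyp4a14 passed without Wildtype 1 and without Wildtype 2 (adjusted p = 0.00988 in each), and Cyp4a12b turned to 0.07 without Cxcr6 KO 3. The arrays of the 2 groups did not overlap for 4 members in Double KO against Nemo KO, against 22.8% of all genes tested, and these were Cyp4a14, Cyp4a31, Cyp4a32 and Cyp4b1. In Cxcr6 KO against Wildtype, 6 members lay wholly higher (Cyp1a1, Cyp1a2 and 4 Cyp4a genes) and 2 wholly lower (Cyp3a13 and Cyp4f17), against 23.9% of all genes. Nemo KO lay wholly above Wildtype for Cyp1a1 and Cyp4b1 and wholly below it for Cyp4a14, against 36% of all genes. Double KO lay wholly above Cxcr6 KO for Cyp3a13, Cyp4b1, Cyp4f16 and Cyp4f37 and below it for Cyp4a14, against 37.7% of all genes.

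Ppara, the receptor that drives Cyp4a genes, did not follow the order of Cyp4a14. It had log2 signals of 11.39, 12.03 and 11.66 in Double KO, 12.15, 12.14 and 12.16 in Nemo KO, 12.73, 13.18 and 13.02 in Cxcr6 KO, and 12.15 and 12.15 in Wildtype. Double KO was the lowest group for Ppara and Nemo KO the lowest for Cyp4a14. Ppara fell by 1.28 ± 0.16 log2 units in Double KO against Cxcr6 KO (adjusted p = 0.00856) and by 0.64 ± 0.12 in the average over both lines (adjusted p = 0.0127). It differed by 0.00 ± 0.18 in Nemo KO against Wildtype (adjusted p = 1), by 0.83 ± 0.18 in Cxcr6 KO against Wildtype (adjusted p = 0.137), by -0.46 ± 0.16 in Double KO against Nemo KO (adjusted p = 0.222) and by -1.28 ± 0.25 in the interaction (adjusted p = 0.251).

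Of 24 listed genes of the PPARa pathway, 22 were tested. In the average over both lines 7 fell and 1 rose, and the 4 with the smallest p were Fabp1 (a fatty acid binding protein), Ppara, Acot1 (acyl-CoA thioesterase, -1.36) and Acadm (medium-chain acyl-CoA dehydrogenase, -0.67). In Double KO against Cxcr6 KO 5 fell and 1 rose. The smallest p belonged to Ppara, Fabp1 (-1.39), the peroxisomal thiolase Acaa1a (-0.94) and the peroxisome factor Pex11a (-1.13). The largest difference on the list was nevertheless a rise in both comparisons. Values ran from -1.39 to 3.95 in Double KO against Cxcr6 KO and from -1.36 to 3.12 in the average. In Cxcr6 KO against Wildtype 2 rose, Acaa1a by 1.26 and its close copy Acaa1b by 1.98. None was called in Nemo KO against Wildtype or in Double KO against Nemo KO, where the list's median was 0.33. The list's mean signal was 12.01 to 12.59 in Double KO, 11.76 to 11.89 in Nemo KO, 12.36 to 12.71 in Cxcr6 KO, and 12.18 and 11.71 in Wildtype 1 and 2.

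Cyp4b1 is a fatty acid and xenobiotic hydroxylase best known from lung. Its log2 signals were 6.85, 7.15 and 6.75 in Double KO, 6.42, 6.36 and 6.46 in Nemo KO, 5.89, 6.40 and 6.22 in Cxcr6 KO, and 6.18 and 6.34 in Wildtype. Double KO held the 3 highest arrays of all 11. Cyp4b1 rose in Double KO against Cxcr6 KO by 0.75 ± 0.14 log2 units (1.68-fold, adjusted p = 0.0226) and in the average over both lines by 0.45 ± 0.11 (1.37-fold, adjusted p = 0.022). The first call was lost without Double KO 2 (0.63, adjusted p = 0.0604), Double KO 3 (0.83, adjusted p = 0.0522), Cxcr6 KO 1 (0.61, adjusted p = 0.0507) or Cxcr6 KO 3 (0.77, adjusted p = 0.0792), and the second without Wildtype 1 (0.41, adjusted p = 0.0815). Double KO was 0.50 ± 0.14 above Nemo KO (adjusted p = 0.155), Nemo KO was 0.15 ± 0.16 above Wildtype (adjusted p = 0.614), Cxcr6 KO differed from Wildtype by -0.10 ± 0.16 (adjusted p = 0.888) and the interaction was 0.60 ± 0.22 (adjusted p = 0.351).

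Markers of other liver cells moved with the same groups as Cyp4b1. All 10 endothelial markers rose in Double KO against Cxcr6 KO, by 1.33 to 2.82 log2 units, with the smallest p for Lyve1 (1.46) and Pecam1 (1.33), and their mean signal was 8.62 to 9.61 in Double KO, 7.75 to 8.31 in Nemo KO, 6.59 to 7.40 in Cxcr6 KO and 7.32 to 7.41 in Wildtype. Of 8 tested stellate cell and fibroblast markers 7 rose, with the smallest p for Dcn (3.70) and Rgs5 (2.26), and the mean of the list was 6.50 to 7.31 in Double KO, 6.32 to 6.48 in Nemo KO, 5.63 to 5.73 in Cxcr6 KO and 5.77 to 6.11 in Wildtype. Of 10 macrophage markers 4 rose, among them Lyz2 (2.69), with a list mean of 8.26 to 9.32 in Double KO, 7.36 to 8.93 in Nemo KO, 6.97 to 7.39 in Cxcr6 KO and 6.59 to 7.70 in Wildtype. Of 5 tested cholangiocyte markers 2 rose, Pkhd1 (1.33) and Epcam (0.96). T and NK cell markers and neutrophil markers averaged between 4.88 and 5.44 in every array, close to the array medians. None of 9 tested hepatocyte markers was called in Double KO against Cxcr6 KO (lowest adjusted p = 0.0526). There 4 of them lay wholly lower and 2 wholly higher, against 37.7% of all genes without overlap. In the average over both lines 1 fell (adjusted p = 0.0285). Their list mean of 19.25 to 19.42 lay close to the highest array value, 19.93. Level values of these markers therefore do not show that the share of hepatocytes was unchanged. The part of these cells in the Cyp4b1 difference was not tested.

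Both Cyp1a genes had their lowest group mean in Wildtype. Cyp1a1, the inducible hydrocarbon hydroxylase, had log2 signals of 6.72, 7.50 and 5.85 in Double KO, 6.49, 6.63 and 5.45 in Nemo KO, 5.65, 5.94 and 5.94 in Cxcr6 KO, and 5.21 and 5.07 in Wildtype. Cyp1a2, the constitutive liver form that metabolises caffeine, had 18.64, 18.90 and 18.39 in Double KO, 18.64, 18.88 and 17.38 in Nemo KO, 18.64, 18.92 and 18.92 in Cxcr6 KO, and 17.77 and 17.47 in Wildtype. Cyp1b1, a form found mostly outside the liver, lay below the filter, with 4.66, 4.66 and 4.31 in Double KO, 4.66, 4.74 and 4.67 in Nemo KO, 4.66, 4.66 and 4.47 in Cxcr6 KO, and 4.42 and 4.66 in Wildtype. Both Wildtype arrays were the lowest for Cyp1a1, while for Cyp1a2 the lowest array was Nemo KO 3. Replicate 3 was the lowest of its group for both Cyp1a genes in Double KO and in Nemo KO.

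Nemo deletion averaged over both lines gave 0.95 ± 0.31 log2 units for Cyp1a1 (adjusted p = 0.0577). The Wildtype mean of Cyp1a1, 5.14, lay below the filter of 5.27, so the Wildtype signal of this gene was low. How far this limits the size of each Cyp1a1 difference that uses Wildtype was not tested. The average over both lines passed 5% in 5 of 19 alternatives. Among these were the fits without Nemo KO 3 (1.13, adjusted p = 0.0245) and without Double KO 3 (1.16, adjusted p = 0.0323). It also passed with a stricter filter (adjusted p = 0.0423). The difference was 1.05 ± 0.46 in Nemo KO against Wildtype (adjusted p = 0.197), 0.85 ± 0.41 in Double KO against Cxcr6 KO (adjusted p = 0.205), 0.70 ± 0.46 in Cxcr6 KO against Wildtype (adjusted p = 0.651) and 0.50 ± 0.41 in Double KO against Nemo KO (adjusted p = 0.549). For Cyp1a2 the furthest value was 1.20 ± 0.38 in Cxcr6 KO against Wildtype (2.30-fold, adjusted p = 0.262). It was 0.68 ± 0.38 in Nemo KO against Wildtype (adjusted p = 0.307), and 1.14 without Nemo KO 3 (adjusted p = 0.0334). It was -0.18 ± 0.34 in Double KO against Cxcr6 KO (adjusted p = 0.756) and 0.25 ± 0.25 in the average over both lines (adjusted p = 0.542), with the average at 0.48 without Nemo KO 3 (adjusted p = 0.0312).

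Ahr, the receptor upstream of the Cyp1 genes, had log2 signals of 12.20, 11.91 and 11.91 in Double KO, 12.02, 12.62 and 11.98 in Nemo KO, 11.58, 11.84 and 11.99 in Cxcr6 KO, and 10.13 and 11.15 in Wildtype. Both Wildtype arrays lay below all others, as they did for Cyp1a1. Ahr rose by 0.88 ± 0.20 in the average over both lines (adjusted p = 0.0183), the 1 called gene among 6 tested of 10 listed in the Ahr pathway. Its other differences were 1.56 ± 0.30 in Nemo KO against Wildtype (adjusted p = 0.063), 0.20 ± 0.27 in Double KO against Cxcr6 KO (adjusted p = 0.647), 1.16 ± 0.30 in Cxcr6 KO against Wildtype (adjusted p = 0.181), -0.20 ± 0.27 in Double KO against Nemo KO (adjusted p = 0.714) and -1.36 ± 0.40 in the interaction (adjusted p = 0.28). Tiparp, another Ahr target, averaged 8.68 ± 0.62 in Double KO, 8.98 ± 0.67 in Nemo KO, 9.11 ± 0.15 in Cxcr6 KO (SD, n = 3 each) and 8.44 ± 0.13 in Wildtype (SD, n = 2), and it was not called in any comparison. Replicate 3 was the lowest of its group for Tiparp too in the Double KO and Nemo KO groups. The mean of the 8 listed Ahr pathway genes with a row did not share this order in Double KO. It was 9.17, 9.04 and 9.31 there, with replicate 3 the highest, and 8.91, 8.97 and 8.69 in Nemo KO.

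**Figure D3:**
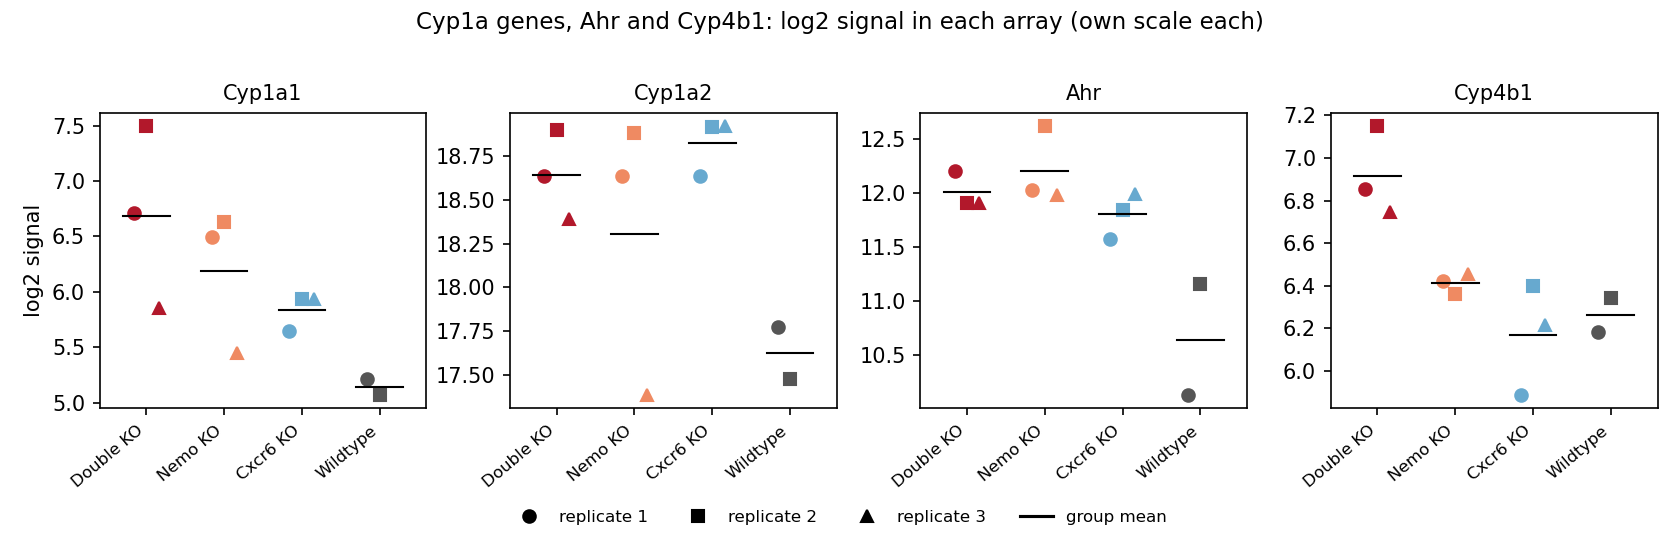
Log2 signal of Cyp1a1, Cyp1a2, Ahr and Cyp4b1 in each array, each on its own vertical scale that does not start at 0, with group means as bars. Wildtype is the lowest group for Cyp1a1 and Ahr, Nemo KO 3 lies apart for Cyp1a2, and Double KO holds the 3 highest Cyp4b1 arrays.

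No Cyp3a gene was called in any comparison by limma, and none had an unadjusted p under 0.05. Cyp3a11, the main drug-oxidising Cyp3a of mouse liver, had log2 signals of 19.23, 19.62 and 19.43 in Double KO, 19.23, 19.38 and 19.38 in Nemo KO, 19.34, 19.24 and 19.34 in Cxcr6 KO, and 18.52 and 19.41 in Wildtype. Wildtype 1 lay below the other 10 arrays, which spanned 19.23 to 19.62. The highest value on any array was 19.93, and how far the top of the scale limits the Cyp3a11 differences was not tested. Cyp3a25, a constitutive form of liver and gut, had 17.05, 18.13 and 17.88 in Double KO, 17.44, 17.47 and 17.71 in Nemo KO, 17.76, 17.84 and 17.71 in Cxcr6 KO, and 16.82 and 18.15 in Wildtype. The spread inside Double KO and inside Wildtype was wider than any difference between group means.

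Cyp3a44, female-predominant in mouse liver, had log2 signals of 14.87, 15.50 and 15.14 in Double KO, 14.89, 15.10 and 15.27 in Nemo KO, 15.09, 14.75 and 15.01 in Cxcr6 KO, and 14.17 and 15.22 in Wildtype. Cyp3a16, known as a fetal and neonatal form, had 10.48, 10.94 and 10.68 in Double KO, 10.46, 10.72 and 10.74 in Nemo KO, 10.64, 10.46 and 10.62 in Cxcr6 KO, and 10.02 and 10.76 in Wildtype. Wildtype 1 was the lowest of the 11 arrays for both genes and Double KO 2 the highest. Cyp3a13, which lies apart from the cluster, had 15.93, 15.93 and 16.03 in Double KO, 16.13, 15.89 and 16.18 in Nemo KO, 15.74, 15.71 and 15.85 in Cxcr6 KO, and 16.10 and 15.85 in Wildtype. Its Cxcr6 KO arrays were the 3 lowest, at -0.21 ± 0.11 log2 units against Wildtype (adjusted p = 0.563).

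The 6 genes of the Cyp3a cluster shared their lowest array. Wildtype 1 was the lowest array for 6 of the 7 Cyp3a genes, all but Cyp3a13. The highest array was Wildtype 2 for Cyp3a25, Cyp3a57 and Cyp3a59, and Double KO 2 for Cyp3a11, Cyp3a16 and Cyp3a44. The margin was small for Cyp3a25, with 18.15 in Wildtype 2 and 18.13 in Double KO 2, and for Cyp3a57, with 14.86 and 14.75. The gap of Wildtype 1 minus Wildtype 2 was -1.34 for Cyp3a25, -1.25 for Cyp3a57, -1.62 for Cyp3a59 and -1.04 for Cyp3a44, opposite in sign to the gaps of the 5 Cyp4a genes. Ranges over all arrays were 0.48 to 1.62 log2 units for the Cyp3a genes. Cyp3a57 lay between 13.61 and 14.86 and Cyp3a59 between 16.38 and 18.00 over all arrays, with group means of 14.20 to 14.38 and 17.18 to 17.36.

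Comparisons with Wildtype depended on which Wildtype array was kept. Nemo KO minus Wildtype was 0.37 ± 0.22 for Cyp3a11 (adjusted p = 0.35) and 0.39 ± 0.29 for Cyp3a44 (adjusted p = 0.446). Without Wildtype 2, so against the single lowest array and with the spread taken from the other groups, the values were 0.81 (adjusted p = 0.0182) and 0.92 (adjusted p = 0.0476), and without Wildtype 1 they were -0.08 and -0.13. Cyp3a11 in Cxcr6 KO against Wildtype was 0.35 ± 0.22 (adjusted p = 0.635), with 0.79 without Wildtype 2 (adjusted p = 0.0428) and -0.10 without Wildtype 1 (adjusted p = 0.838). In Double KO against Nemo KO, which does not use the Wildtype means, the 7 values lay between -0.10 and 0.17, with 95% intervals of -0.35 to 0.55 for Cyp3a11 and -0.74 to 1.07 for Cyp3a59.

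**Figure D4:**
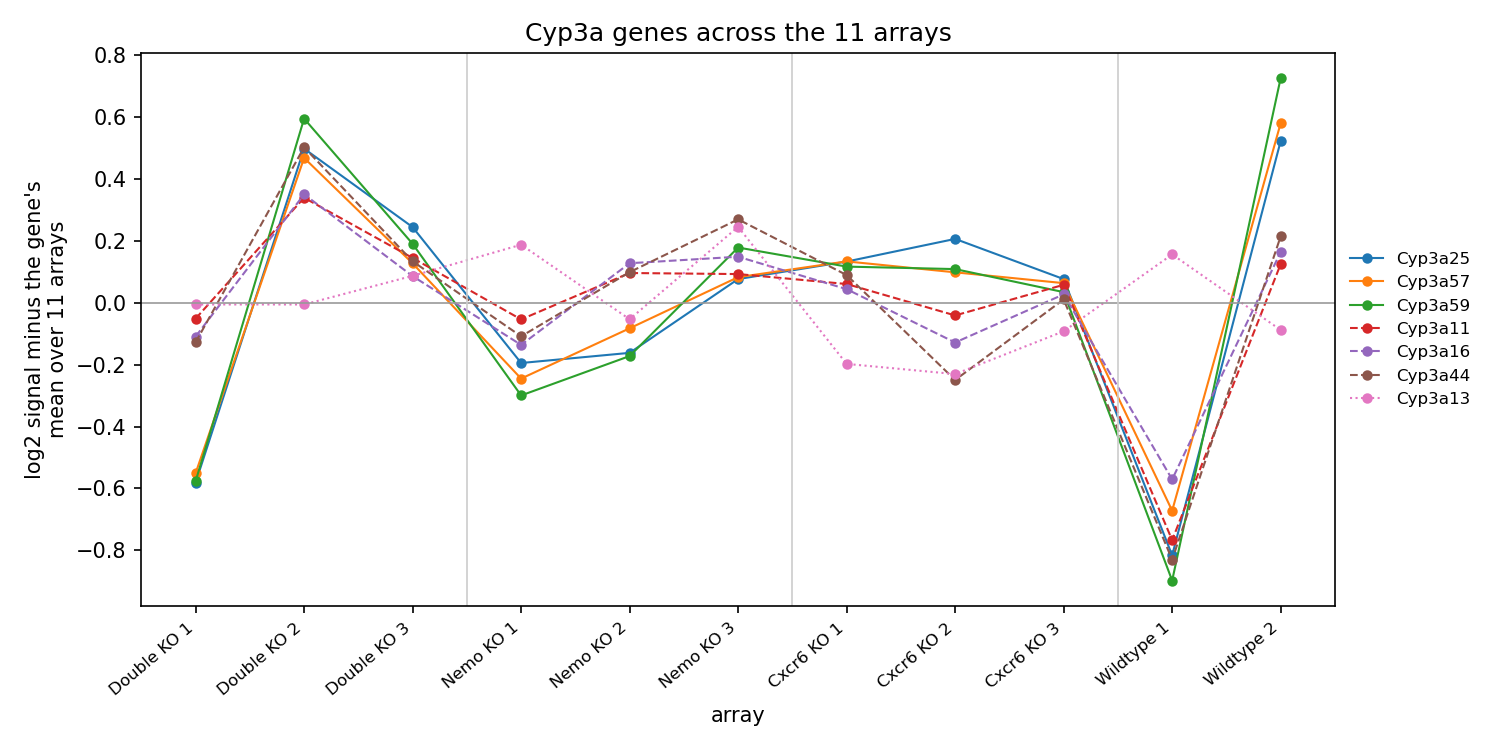
Log2 signal of each Cyp3a gene minus that gene's mean over the 11 arrays (vertical axis), by array. The 6 genes of the cluster are lowest in Wildtype 1, and Cyp3a25, Cyp3a57 and Cyp3a59 (solid lines) run together, while Cyp3a13 (dotted) does not.

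The receptors that induce Cyp3a genes were not called either. Nr1i2 (PXR) had log2 signals of 11.07, 11.18 and 10.91 in Double KO, 9.98, 10.56 and 10.74 in Nemo KO, 10.96, 10.89 and 11.36 in Cxcr6 KO, and 9.95 and 11.24 in Wildtype. Its differences were -0.17 ± 0.35 in Nemo KO against Wildtype (adjusted p = 0.81), -0.01 ± 0.32 in Double KO against Cxcr6 KO (adjusted p = 0.984), -0.09 ± 0.24 in the average (adjusted p = 0.827), 0.47 ± 0.35 in Cxcr6 KO against Wildtype (adjusted p = 0.699), 0.63 ± 0.32 in Double KO against Nemo KO (adjusted p = 0.349) and 0.16 ± 0.47 in the interaction (adjusted p = 0.91). Nr1i3 (CAR) had 11.14, 12.38 and 11.92 in Double KO, 11.43, 11.96 and 12.18 in Nemo KO, 12.48, 13.15 and 12.96 in Cxcr6 KO, and 12.22 and 11.36 in Wildtype. Cxcr6 KO held its 3 highest arrays. Nr1i3 differed by -1.05 ± 0.36 in Double KO against Cxcr6 KO (adjusted p = 0.0959), 1.07 ± 0.40 in Cxcr6 KO against Wildtype (adjusted p = 0.353), 0.07 ± 0.40 in Nemo KO against Wildtype (adjusted p = 0.94), -0.49 ± 0.27 in the average (adjusted p = 0.231), -0.04 ± 0.36 in Double KO against Nemo KO (adjusted p = 0.964) and -1.11 ± 0.54 in the interaction (adjusted p = 0.453). Of 16 tested genes of the PXR and CAR list, 1 fell in the average over both lines, the liver transcription factor Hnf4a, by 0.57 ± 0.14 (adjusted p = 0.0217), and none was called elsewhere. Cyp2b10, the usual CAR target, averaged 11.27 ± 1.31 in Double KO, 9.23 ± 1.07 in Nemo KO, 10.38 ± 1.17 in Cxcr6 KO (SD, n = 3 each) and 10.23 ± 2.00 in Wildtype (SD, n = 2).

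None of the 9 tested Cyp4f genes was called in any comparison by limma. An unadjusted p under 0.05 was found for 3 of them in Double KO against Cxcr6 KO, against 5344 of all 18337 genes tested. The average over both lines had 2, against 6371 of all genes. Cyp4f14, which inactivates leukotriene B4 in mouse liver, had log2 signals of 14.80, 14.89 and 14.92 in Double KO, 14.85, 15.11 and 14.84 in Nemo KO, 14.81, 14.92 and 14.92 in Cxcr6 KO, and 14.92 and 15.38 in Wildtype. Cyp4f18, the neutrophil member, stayed between 5.78 and 5.88, with 9 of 11 arrays at the same deposited value. Cyp4f16 had 7.38, 7.59 and 7.60 in Double KO, 7.38, 7.67 and 7.38 in Nemo KO, 6.97, 7.18 and 7.26 in Cxcr6 KO, and 7.09 and 7.42 in Wildtype. Its Double KO arrays lay above all Cxcr6 KO arrays (0.39 ± 0.13, adjusted p = 0.0918), and the average over both lines was 0.31 ± 0.10 (adjusted p = 0.0542), with passes under the stricter filter (adjusted p = 0.0494), without Double KO 1 (adjusted p = 0.0494) and without Wildtype 2 (adjusted p = 0.0255).

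Cyp4f17 ranged from 8.94 in Cxcr6 KO 1 to 10.64 in Double KO 3 and was 0.70 ± 0.27 above Cxcr6 KO in Double KO (adjusted p = 0.124). Cyp4f13 differed by -0.36 ± 0.16 in that comparison (adjusted p = 0.163), and Cyp4f15 by 0.27 ± 0.27 (adjusted p = 0.547), with a range of 13.80 to 15.24 over all arrays. Cyp4f37 lay between 7.15 and 7.44. Cyp4f39, the mouse counterpart of a human skin lipid hydroxylase, lay between 5.38 and 5.46, and Cyp4f40 between 5.72 and 5.89, close to the array medians of 5.19 to 5.38. Cyp4x1, a form known from brain, lay between 4.29 and 4.43. In 4 of the 26 members, Cyp4f18, Cyp4f39, Cyp4f40 and Cyp4x1, at least 6 arrays carried the same value, so their rows hold little information on the groups. Shared values were not limited to them. At least 2 arrays carried the same value in 16 of the 26 members, such as Cyp1a2 (18.64 in 3 arrays) and Cyp4f14 (14.92 in 4 arrays).

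Of electron carriers and other partners of P450s, 5 of 8 listed genes were tested, and Por was not among the genes with a named row. Whether the listed genes serve the members was not tested. Cyb5b, an outer mitochondrial cytochrome b5, fell in Double KO against Cxcr6 KO by 0.93 ± 0.19 (adjusted p = 0.0241) and in the average by 0.77 ± 0.14 (adjusted p = 0.0114). Of 8 tested genes of haem synthesis and breakdown, Fech, which inserts iron into haem, fell in Nemo KO against Wildtype by 0.83 ± 0.12 (adjusted p = 0.0448), in Double KO against Cxcr6 KO by 0.59 ± 0.11 (adjusted p = 0.0196) and in the average by 0.71 ± 0.08 (adjusted p = 0.00502). It was the 1 haem gene called in each.

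Sex-biased genes are listed because Cyp4a12a, Cyp4a12b and Cyp3a44 belong to that program in mouse liver. Of 16 male-biased genes, 4 fell in Double KO against Cxcr6 KO (Slco1a1 by 2.53, Serpina1e by 0.61, Gstp1 by 1.02 and Hsd3b5 by 6.06), while the Cyp4a12 differences there were -0.20 ± 0.50 and -0.08 ± 0.51. In Double KO against Nemo KO 2 male-biased genes fell (Slco1a1 by 2.14 and Serpina1e by 0.64) and 1 rose (Selenbp2 by 1.96), in Cxcr6 KO against Wildtype 1 rose (Selenbp2 by 2.10), and in the average 3 rose (C6 by 1.72, C8a by 0.74 and C8b by 0.43) and 1 fell (Slco1a1 by 1.15). Of 12 tested female-biased genes, 2 fell in the average (Acot3 by 2.03 and Cbr1 by 0.57), 1 fell in Double KO against Cxcr6 KO (Acot3 by 2.28) and 1 rose in Double KO against Nemo KO (Cbr1 by 1.72). The mean of the female-biased list was 7.68 to 8.23 in Double KO and 6.79 to 7.09 in Nemo KO. The lowest Cxcr6 KO array had 7.74. Nemo KO thus lay below both groups of the Cxcr6-deleted line, as it did for Cyp4a14, Cyp4a31 and Cyp4a32. The means of the PPARa, PXR and CAR, and haem lists had this order too. In Wildtype 1 and 2 the female-biased mean was 7.06 and 9.27, while Cyp4a14 ran the other way, at 17.96 and 14.72. Cyp4a31 and Cyp4a32 were also higher in Wildtype 1 than in Wildtype 2. None of 10 tested genes of growth hormone signalling was called in any comparison.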

How the data were processed

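RNA from 11 hepatocyte samples was hybridised to Affymetrix whole-transcript arrays from 300 ng with the WT Plus kit, per the labels' protocols. The deposited values are log2 signals; the submitters' processing notes name Affymetrix Expression Console, RMA and Transcriptome Analysis Console, with no version, and these sources do not name a genome build. Of 65956 rows, 30604 named 1 gene, 2146 several and 33206 none. Symbols were updated through gene IDs (22818 matched, 827 changed), and where a gene had several rows the one with the highest mean was kept. Genes were tested where the highest group mean reached 5.27, the median of all row means. The 4 groups were fitted together with limma 3.58.1 (lmFit, eBayes) in R 4.3.3, with Benjamini-Hochberg adjustment over all 18337 genes, and the code was tested on simulated data. Python 3.11.15, Biopython 1.88 and matplotlib 3.10.9 were used for alignments of start windows and for plots. Genes named are the members past 5%, well-known members, the regulators Ahr, Nr1i2, Nr1i3 and Ppara, and up to 4 called genes of each list by smallest p; Lyz2, Tiparp and Cyp2b10 were chosen after their values were seen. The members and lists were chosen with earlier results of these data known. Deviations of same-numbered replicates from their group means had correlations of -0.27 to 0.28 (15 pairs). The 6 over 0.1 were the replicate 1 and replicate 2 pairs among Double KO, Nemo KO and Wildtype. All pairs with Cxcr6 KO and the replicate 3 pairs lay between -0.27 and 0.09. No pairing is known from the labels, so the main fit did not use the numbers as pairs. Array number, not read depth, limits precision, with 7 residual degrees of freedom. Alternatives were centred or quantile-normalized arrays, other filters, variance models and array weights, a replicate block, 2-group fits and leaving out each array.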

Additional observations from a re-analysis of the deposited data

Results flagged for a closer look

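Cyp4x1 lay below the filter in every group. Every Double KO array was below the Cxcr6 KO mean (group means 4.33 and 4.37), and every Nemo KO array was above the Wildtype mean (4.36 and 4.34). The difference between the lines, Double KO minus Cxcr6 KO less Nemo KO minus Wildtype, was -0.0608 log2 units and was not tested. Of the 11 arrays, 6 carried the same deposited value, 4.35. These were Double KO 1, Cxcr6 KO 2 and 3, Nemo KO 2 and 3, and Wildtype 2. The same value thus counted as below the Cxcr6 KO mean and above the Wildtype mean. No sign of Nemo deletion can therefore be read from this row.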

How the results depend on the processing

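No value that had passed 5% changed its direction under the 19 or 20 alternatives run for each. Counts of members past 5% moved as follows. With each array centred on its median, 1 member passed in Nemo KO against Wildtype (Cyp4a14) and 3 in Double KO against Nemo KO (Cyp4a14, Cyp4a31, Cyp4a32). With a filter 1 log2 unit higher, 4 passed in the average over both lines and 2 in Double KO against Nemo KO, and trend and robust variance also gave 2 there. Array weights gave 4 in Double KO against Cxcr6 KO and 4 in Double KO against Nemo KO. Fits of only the 2 groups gave 2 in Double KO against Cxcr6 KO and 1 in Double KO against Nemo KO. With the replicate block, which rests on shared numbers and no known pairing, 2 passed in Double KO against Cxcr6 KO (Cyp4b1, Cyp4f16) and 4 in the average (Cyp1a1, Cyp4a14, Cyp4b1, Cyp4f16). Leaving out each array in turn gave 0 to 3 in Nemo KO against Wildtype, 0 to 2 in Double KO against Cxcr6 KO, 2 to 6 in the average, 0 to 4 in Cxcr6 KO against Wildtype, 0 to 3 in Double KO against Nemo KO and 0 to 1 in the interaction. The cause of these moves was not tested.

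Over all genes, Nemo KO against Wildtype had 29 calls, but 1274 with centred arrays, 85 with the stricter filter, 11 with quantile normalization, 7 with no filter and 0 with the replicate block. Double KO against Nemo KO had 109, but 200 with centring and 971 with array weights. Double KO against Cxcr6 KO had 1358, but 4692 with array weights and 2766 with 2 groups. The share of higher calls in Double KO against Nemo KO was 61.5%, 87% with centring and 75% with quantile normalization, and in Double KO against Cxcr6 KO it was 46.5%, against 58.6% with centring. In Cxcr6 KO against Wildtype it was 68.1%, and 80% with quantile normalization. Centring moved the median of all genes in Double KO against Nemo KO to 0.16, where it was 0.04. Leaving out 1 array gave 0 to 2369 calls in Nemo KO against Wildtype (2369 without Wildtype 2, 1023 without Nemo KO 3, 0 without Cxcr6 KO 2 or 3), 116 to 2352 in Double KO against Cxcr6 KO (116 without Cxcr6 KO 3, 202 without Cxcr6 KO 2, 203 without Double KO 3, with up to 75.7% higher), 1369 to 5026 in the average, 8 to 486 in Cxcr6 KO against Wildtype, 19 to 161 in Double KO against Nemo KO and 0 to 230 in the interaction. With 2 Wildtype arrays that differ by over 1 log2 unit for 9 members, comparisons with Wildtype are the least precise.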
